A study of Rattus norvegicus with 8 samples.

Results

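Collagen chains are polypeptides with Gly-X-Y repeats that wind together as trimers into the main structural proteins of the extracellular matrix, and their transcripts were followed here in rats given testosterone after castration. The members were all gene spots whose name in the array files reads Col, a number, a and a number. This gave 54 probes of 37 chains among 30367 gene probes with 26276 names. The single probe named Col4a3bp, a gene that is no collagen chain, was left out. By class, 11 chains (17 probes) were fibrillar, 5 chains (6 probes) were type IV chains of basement membranes, and 21 chains (31 probes) belonged to other classes.

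Each of 8 two-colour Agilent arrays carried RNA of castrated rats that had received testosterone propionate, an injectable androgen ester, beside RNA of castrated controls, which the labels name C3d. The animals were male Wistar rats aged 120 ± 12 days, and the treated ones had received 4 mg/kg subcutaneously in corn oil; the labels name them C3dpt8h where RNA was taken at 8 h (4 arrays) and C3dpt24h where it was taken at 24 h (4 arrays). Castration was thus common to every RNA. The series title names muscle atrophy, and the muscle is not named in the labels. Whether an array held 1 animal or a pool, whether controls received oil, and whether the times shared control RNA is not stated in the labels or files. The p-values therefore refer to the spread between these arrays. That spread was estimated over both times together, after a dye term and with information shared across probes. It is not the SD over the 4 arrays of a time that is printed beside the p-values. Values are log2 ratios, treated RNA over the control RNA on the same array, unless called signals.

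Fibrillar collagens (types I, II, III and V among those measured here) form the banded fibrils that carry load in the connective tissue around muscle fibres. Type IV chains form the network of the basement membrane that wraps each fibre, type VI forms beaded microfibrils next to it, and fibril-associated chains such as Col14a1 sit on fibril surfaces. In skeletal muscle, fibroblasts and fibro-adipogenic progenitors are the main source of fibrillar collagen. Chains are hydroxylated, glycosylated and folded in the endoplasmic reticulum, trimmed outside the cell, and cross-linked by lysyl oxidases.

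All 8 skeletal muscle fibre markers, among them Ckm, Acta1 and Myh4, were well above background, and the summed signal of the 6 with no saturated spot ran from 31600 to 54200 over all arrays and both RNAs, with 2 flagged Tnnt3 spots at 8 h missing from it. The other two, Tnni2 and Actn3, were saturated on all 4 arrays at 24 h and on 3 and 2 arrays at 8 h. None of the 4 cartilage markers passed the filter. The 4 arrays of each time shared 1 slide, so a slide difference and a time difference cannot be told apart. Replicate 1 at 8 h stood apart, with an SD of 0.437 of its log2 ratios over all tested probes against 0.18 to 0.198 on the other 8 h arrays and 0.235 to 0.302 at 24 h. Replicate 2 at 8 h correlated across probes at 0.274 with replicate 1 and at -0.121 and -0.036 with replicates 3 and 4, whereas the 24 h arrays correlated at 0.225 to 0.703. At 8 h the treated RNA carried Cy3 on replicates 1 and 2 and Cy5 on replicates 3 and 4, so that dye and this pair of arrays coincide.

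Each probe is a 60-base DNA strand, and some fibrillar probes read the conserved end of the coding sequence. A probe of Col1a1 (chr10:83637956-83638015, plus strand, rn4) ends in a stop codon that closes an open reading frame, marked in capitals. It is shown 5′ to 3′ beside the probe of Col3a1 (chr9:44317465-44317524, plus strand, rn4) because both passed the threshold at 24 h and read related stretches. In the Col3a1 probe the capitals mark 21 of the 26 bases that overlap the start of the Col1a1 probe when both are laid side by side without gaps.
Col1a1 A_44_P350521: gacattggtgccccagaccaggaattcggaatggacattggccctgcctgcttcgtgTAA
Col3a1 A_44_P146518: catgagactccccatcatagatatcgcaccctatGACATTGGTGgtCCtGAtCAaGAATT

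At 24 h, probes of Col1a1, Col1a2, Col3a1, Col5a2, Col4a1 and Col6a3 were higher in the treated RNA, and the highest ratios among tested collagen probes belonged to types I and III. Of 20 tested collagen probes (16 chains), 8 probes of 6 chains rose, none fell and 12 did not pass the threshold, against 4.15% of all 12053 tested probes called higher and 6.91% called in either direction. A call here means an adjusted p under 0.05 in the limma fit. Col6a3 entered the test only through the treated RNA at 24 h, where it was high, and without it 7 of 19 probes and 5 of 15 chains rose. Of the 12 probes that did not pass, 3 had fitted values below 0: Col14a1 A_64_P093189 (-0.24), Col9a1 (-0.09) and Col2a1 (-0.02). At an unadjusted p under 0.05, 0 of the 20 collagen probes were lower, against 9.65% of all tested probes. All 8 called collagen probes were above 0 on 4 of 4 arrays. Over all collagen probes, 13 of 20 were above 0 on all 4 arrays, compared with 15.4% of all tested probes, and 12 of 19 were without Col6a3. In bulk RNA, more cells of a type and more RNA per cell cannot be told apart.

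Col1a1, the α1 chain of type I collagen, stood at 1.29, 1.81, 1.77 and 1.29 on the 4 arrays at 24 h by its brightest probe, A_64_P040278. The normalized signals of that probe were 438, 289, 558 and 382 in the controls and 1072, 1013, 1898 and 933 in the treated RNA. Every treated signal was therefore above every control signal. The fitted difference was 1.54 (SD 0.29, n = 4 arrays), or 2.90-fold, with an adjusted p of 0.00203. The second Col1a1 probe, A_44_P350521, printed above, gave 0.86, 1.09, 0.96 and 0.79, a smaller difference of 0.92 (SD 0.13, adjusted p = 0.00203). Both probes rose, and the 95% interval of the brighter one (1.10 to 1.97) overlapped that of the other (0.66 to 1.19).

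Col1a2, the α2 chain that pairs with Col1a1 in type I fibrils, stood at 1.14, 1.20, 1.18 and 1.02 at 24 h. Its control signals were 3440, 2665, 3933 and 2464, and its treated signals 7575, 6121, 8909 and 5002. The signals of the 2 RNAs did not overlap, and the ratios had the smallest spread among the called chains, with an SD of 0.08. The fit gave 1.13, or 2.20-fold (adjusted p = 0.00284). Col3a1, whose homotrimers form the thin reticular fibrils of muscle connective tissue, stood at 0.96, 1.51, 1.94 and 1.51. Its signals were 770, 629, 763 and 635 in the controls and 1502, 1790, 2922 and 1804 in the treated RNA, again without overlap. The fit gave 1.48 (SD 0.40), or 2.79-fold (adjusted p = 0.00375).

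**Figure D1:**
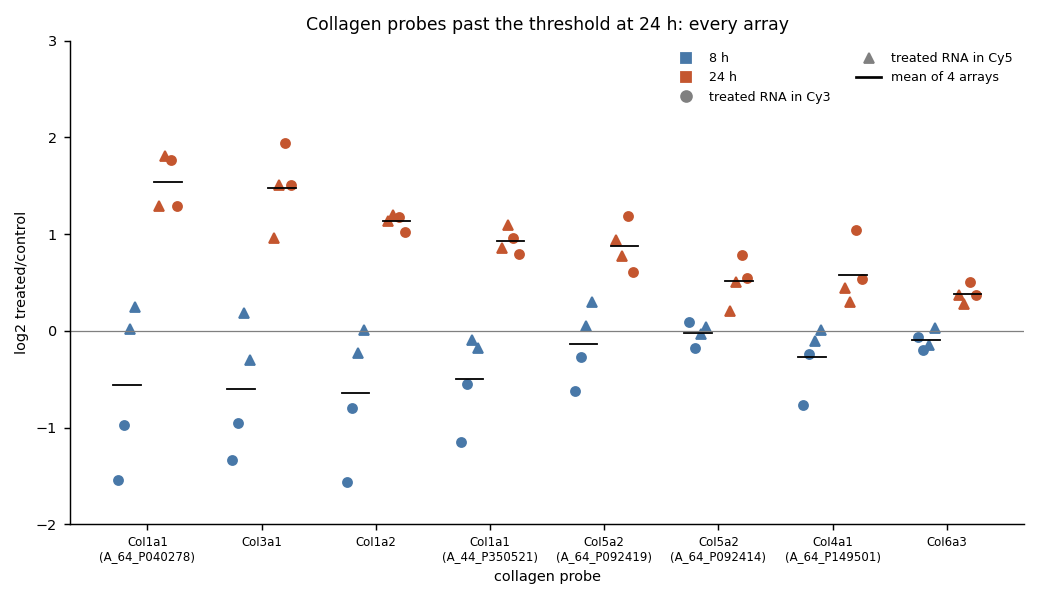
Log2 ratio of treated over control (y axis) on each array for the 8 collagen probes past the threshold at 24 h (x axis), at 8 h in blue and at 24 h in red; circles have the treated RNA in Cy3, triangles in Cy5, and the bar is the mean of 4 arrays. All 24 h points lie above 0, and at 8 h the circles of Col1a1, Col1a2 and Col3a1 lie between -1.56 and -0.55 while the triangles lie between -0.30 and 0.25.

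Type V collagen nucleates type I fibrils and limits their width. Its Col5a2 chain stood at 0.94, 0.77, 1.19 and 0.61 at 24 h by probe A_64_P092419, from control signals of 161, 191, 185 and 190 and treated signals of 310, 327, 421 and 290. The treated signals were all above the controls, and the fit gave 0.88 (SD 0.24), or 1.84-fold (adjusted p = 0.0037). The dim second probe, A_64_P092414, stood at 0.21, 0.51, 0.78 and 0.55, with a fitted difference of 0.51 (SD 0.23, adjusted p = 0.00872). With the scanner's processed signals, which carry no added offset, that probe stood at 1.52 (adjusted p = 0.0252). Without replicate 3 of 24 h its difference was 0.43 and missed the threshold (adjusted p = 0.0538).

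Col5a3, a type V chain of more restricted expression, stood at 0.33, 0.33, 0.54 and 0.02 at 24 h. All 4 values were above 0 and the fitted 0.30 (SD 0.22) missed the threshold, with an adjusted p of 0.0635. Col2a1, the cartilage fibril chain, passed the filter through the 8 h arrays, where 3 of 4 control and 3 of 4 treated spots were well above background. At 24 h it was well above background in no control and 1 treated spot, and its fitted ratios were 0.02 at 8 h and -0.02 at 24 h. These are levels at the edge of detection.

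**Figure D2:**
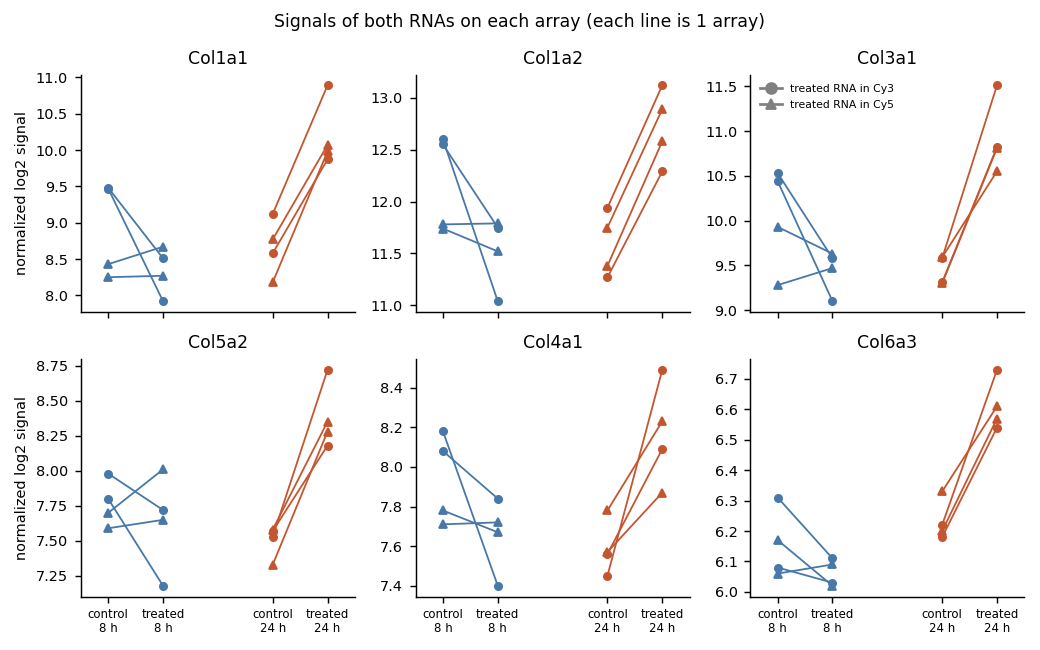
Normalized log2 signal (y axis) of the control and treated RNA (x axis) for the brightest tested probe of 6 collagen chains, each line being 1 array, 8 h in blue and 24 h in red. All 24 h lines rise, and at 8 h the lines of Col1a1, Col1a2 and Col3a1 that fall most start from the higher control signals of replicates 1 and 2.

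Of the type IV chains, 3 probes of 2 chains were tested, and 1 rose at 24 h, against 4.15% of all tested probes called higher. Col4a1, which forms the most widespread basement membrane network together with Col4a2, stood at 0.44, 0.30, 1.04 and 0.54 by its brightest probe, A_64_P149501. Its signals were 220, 189, 175 and 188 in the controls and 299, 234, 359 and 273 in the treated RNA, with no overlap. The fitted difference was 0.58 (SD 0.32), or 1.50-fold, with an adjusted p of 0.039. This call was close to the threshold: it was lost without replicate 3 of 24 h (0.39, adjusted p = 0.166) and in 7 other of the 19 alternative settings. Leaving out replicate 1 of 24 h gave 0.64 (adjusted p = 0.135), and leaving out replicate 4 gave 0.59 (adjusted p = 0.119).

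The second Col4a1 probe, A_64_P293606 (rn4 chr16:83146135-83146194, plus strand), reads the collagenous repeat itself and is shown for that reason. Capitals mark GGN codons, which encode glycine, and they fill each of the 6 codon places set at intervals of 3 codons in this frame. It was the only one of the 20 tested collagen probes in which all such places were filled.
Col4a1 A_64_P293606: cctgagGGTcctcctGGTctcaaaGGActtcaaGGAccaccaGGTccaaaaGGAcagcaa
At 24 h this probe stood at -0.05, 0.14, 0.09 and 0.25, a fitted 0.11 (SD 0.13, adjusted p = 0.459), and only 1 control and 3 treated spots were well above background. The 2 Col4a1 probes thus differed in their call, and the 95% interval of this one (-0.06 to 0.27) reached the lower bound of the other (0.26 to 0.90).

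Col4a2 stood at 0.23, 0.08, 0.21 and 0.35 at 24 h, above 0 on all 4 arrays, with a fitted 0.22 (SD 0.11) that missed the threshold (adjusted p = 0.114). The probe was dim, with control signals of 58 to 76 and treated signals of 74 to 90, and was well above background in 1 control and 4 treated spots. The Col4a1 and Col4a2 genes lie head to head, and RefSeq (GRCr8) places 76 bases between their starts at chr16:84885521-84885596. These bases are shown, on the plus strand along which Col4a1 runs, because both chains of the network start from them.
Col4a1 and Col4a2 start region: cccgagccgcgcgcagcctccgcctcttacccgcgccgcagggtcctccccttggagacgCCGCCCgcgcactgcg
G and C make up 78.9% of the stretch. The capitals mark the single match to GGGCGG found on either strand, a motif held by 18.1% of 33469 RefSeq windows of this length directly before a gene start.

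Among the other classes, 9 probes of 8 chains were tested, where 4.15% of all tested probes were called higher at 24 h. There 1 rose at 24 h, or none of 8 probes without the chain that the filter admitted only through the treated RNA. This was Col6a3, a chain of the type VI microfibrils, which stood at 0.37, 0.28, 0.51 and 0.37 with a fitted 0.38 (SD 0.10, adjusted p = 0.0123). Its control signals were 73, 81, 75 and 72 and its treated signals 95, 98, 106 and 93. None of the control spots and all 4 treated spots were well above background at 24 h, and the probe entered the test only through the treated group at 24 h. The fitted 0.38, or 1.3-fold, had a 95% interval of 0.22 to 0.54 and is set against a control level not well above background. With the scanner's processed signals the difference was 1.63 (adjusted p = 0.0505).

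Col6a1 and Col6a2 complete the type VI trimer. Col6a2 stood at 0.12, 0.42, 1.01 and 0.22 at 24 h, from control signals of 530, 440, 427 and 462 and treated signals of 577, 587, 858 and 539. All treated signals were above all controls, but the fitted 0.44 (SD 0.40) missed the threshold (adjusted p = 0.0912). Col6a1 stood at -0.23, 0.22, 0.37 and -0.21, with values on both sides of 0 and a fitted 0.04 (adjusted p = 0.914).

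The basement membrane zone chain Col15a1 stood at 0.26, 0.30, 1.14 and 0.14 at 24 h. Replicate 3 lay far above the rest, and the fitted 0.46 (SD 0.46) missed the threshold (adjusted p = 0.177). The 5 tested probes of fibril-associated chains (Col9a1, Col14a1, Col16a1 and Col19a1) had fitted values from -0.24 to 0.19 at 24 h, and none passed the threshold (lowest adjusted p 0.229). The extremes were the brighter Col14a1 probe, A_64_P093189, and Col16a1. That Col14a1 probe stood at -0.85 and -0.54 on the 24 h arrays with treated RNA in Cy5 and at 0.34 and 0.08 on those with it in Cy3. At 8 h its mean was below 0 with both dyes, -0.24 with Cy5 and -0.15 with Cy3. The part of the dye in these values was not tested. The second Col14a1 probe, A_64_P093194, had a fitted 0.02 at 24 h.

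**Figure D3:**
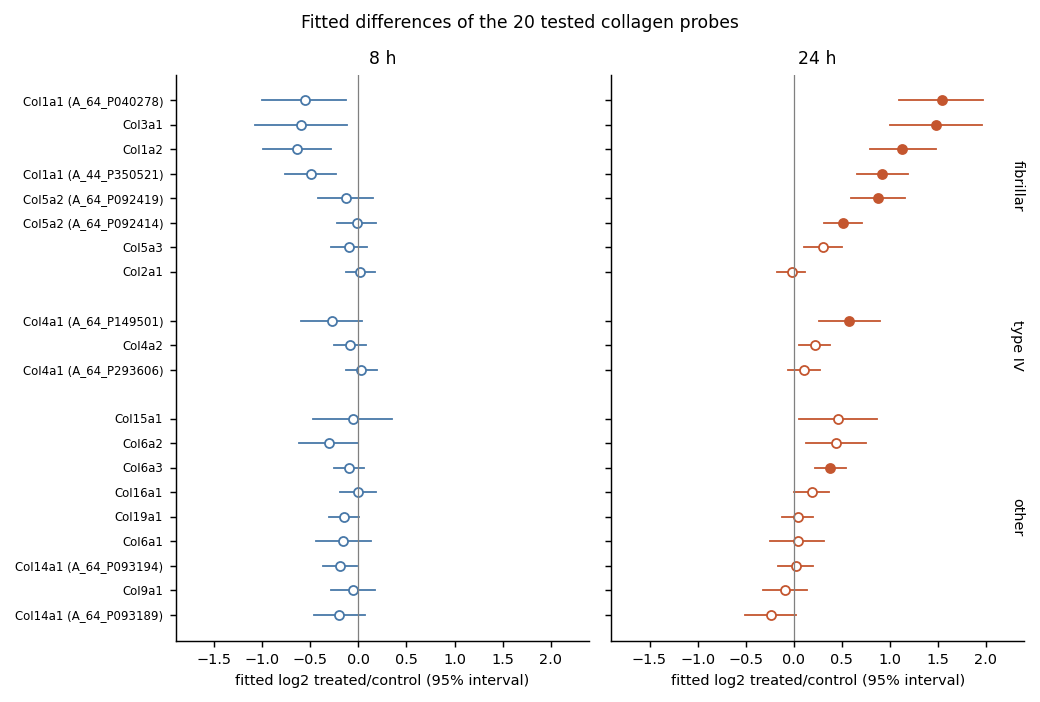
Fitted log2 ratio of treated over control with its 95% interval (x axis) for the 20 tested collagen probes (y axis), at 8 h on the left and 24 h on the right, grouped by class; filled circles passed the threshold. At 24 h, 6 of 8 fibrillar, 1 of 3 type IV and 1 of 9 other probes are filled, the last being Col6a3, which entered the test only through the treated RNA at 24 h; none is filled at 8 h.

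At 8 h no collagen probe passed the threshold in the limma fit, against 0.0249% of all tested probes. At an unadjusted p under 0.05, 6 of the 20 probes were lower and none was higher, compared with 16.9% of all tested probes in either direction and 10.6% lower. In either direction, the count of collagen probes was 0 with median centring, 2 without replicate 1 of 8 h and 3 with array weights. Over all 12053 tested probes it was 2095, 585 and 1966 in the same order, and 2035 in the main fit. Fitted values were below 0 for 18 of 20 collagen probes, against 6368 of all 12053 tested probes. The collagen count fell to 11 when arrays were centred on their medians in place of loess, which itself put the median of all tested probes at 0.12. Relative to that median, 18 of 20 were below. On all 4 arrays, 5 of 20 collagen probes were below 0, against 11.8% of all tested probes.

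The type I and III probes were low on the Cy3 pair of arrays and near 0 on the others. Col1a1 (A_64_P040278) stood at -1.54, -0.97, 0.02 and 0.25 at 8 h, with a fitted -0.56 (SD 0.84, adjusted p = 0.271). Col1a2 stood at -1.56, -0.80, -0.23 and 0.01, with a fitted -0.64 (SD 0.70, adjusted p = 0.27). Col3a1 stood at -1.34, -0.95, 0.19 and -0.30, with a fitted -0.60 (SD 0.68, adjusted p = 0.271). The mean ratio of these 3 probes was between -1.26 and -1.14 on the arrays with treated RNA in Cy3 and between -0.11 and 0.13 on those with it in Cy5. At 24 h the same probes were between 1.10 and 1.72 with Cy3 and between 1.17 and 1.55 with Cy5.

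The 8 h arrays with low ratios were also those with high control signals. For Col1a2 the control signals were 6190, 5981, 3426 and 3521 and the treated signals 2105, 3441, 2930 and 3552. For Col3a1 the controls were 1389, 1476, 622 and 977 and the treated 549, 766, 709 and 793. The controls of replicates 1 and 2 were the highest of all 8 control signals for both genes. The part of the dye or of the control RNA in the 8 h values was not tested.

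Without replicate 2 of 8 h, 2 collagen probes passed the threshold, both lower: Col1a1 A_44_P350521 (-0.55, adjusted p = 0.0345) and Col1a2 (-0.69, adjusted p = 0.0438). The count over all tested probes then went from 3 to 1296. Without replicate 1 of 8 h the same probes stood at -0.31 (adjusted p = 0.851) and -0.39 (adjusted p = 0.819), against -0.49 and -0.64 with all arrays. The size of these 8 h values thus depended on replicate 1. Leaving out replicate 2 changed their size less and changed their calls. Col5a2 (A_64_P092419) stood at -0.62, -0.27, 0.05 and 0.30 and Col4a1 (A_64_P149501) at -0.77, -0.24, -0.10 and 0.01. Both spread over 0, and neither passed (adjusted p = 0.593 and 0.336). Col6a2 stood at -0.61, -0.38, -0.14 and -0.12, below 0 on all 4 arrays, with a fitted -0.31 (SD 0.23, adjusted p = 0.294).

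The difference between the times was tested in the same fit. It was positive and past the threshold for 5 of 20 collagen probes of 4 chains, against 0.747% of all tested probes called higher at 24 h than at 8 h and 1.3% in either direction. The difference was 2.10 for Col1a1 A_64_P040278 (adjusted p = 0.00826) and 1.42 for Col1a1 A_44_P350521 (adjusted p = 0.00643). It was 1.78 for Col1a2 (adjusted p = 0.00756), 2.08 for Col3a1 (adjusted p = 0.0123) and 1.01 for Col5a2 A_64_P092419 (adjusted p = 0.028). These genes were all fibrillar. Every 24 h array was above every 8 h array for 10 of 20 collagen probes (9 of 19 without Col6a3), against 5.15% of all tested probes.

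The remaining 15 probes missed the threshold between the times, with Col6a3 (0.48, adjusted p = 0.0518), Col4a1 A_64_P149501 (0.86, adjusted p = 0.0692) and Col5a2 A_64_P092414 (0.54, adjusted p = 0.0692) next in order of adjusted p. When each array was centred on its median in place of loess, the 5 differences ran from 1.04 to 2.15 and none passed the threshold (adjusted p from 0.211 to 0.396), nor did any other of the tested probes. Without replicate 1 of 8 h the same 5 probes passed, at 0.87 to 1.85. Slide and time coincide here as well.

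By class, the median fitted ratio of the fibrillar probes went from -0.31 at 8 h to 0.90 at 24 h, while that of all tested probes was -0.01 and 0.00. On the 8 h arrays the median of the fibrillar probes was -0.89, -0.41, -0.01 and 0.03, and on the 24 h arrays it was 0.90, 0.93, 1.07 and 0.70. The groups did not overlap, and the 24 h arrays lay closer together (SD 0.15 against 0.43). Types I and III had a median of -0.58 at 8 h and 1.31 at 24 h over 4 probes.

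The type IV median was -0.09 at 8 h and 0.22 at 24 h, with array medians of -0.17, 0.00, -0.04 and -0.14 and then 0.23, 0.14, 0.21 and 0.35. The other classes had a median of -0.15 at the early and 0.04 at the late time. Their array medians were -0.28, -0.20, -0.01 and -0.12 and then 0.11, 0.14, 0.34 and 0.14. As for the fibrillar probes, the array medians of type IV did not overlap between the times. The medians of the other classes include Col6a3, which entered the test only through the treated RNA at 24 h. Their array medians were not computed without it, so their overlap between the times is not judged. With a stricter filter on dim probes, which leaves Col6a3 out, 6 probes of these classes had medians of -0.15 at 8 h and 0.04 at 24 h. With 1 probe per chain, the brightest, 4 of 6 fibrillar, 1 of 2 type IV and 1 of 8 other chains rose at 24 h, the last being Col6a3. With 1 probe per gene in the fit, 454 of all 10867 tested genes were called higher. Whether the classes differ from each other was not tested, since probes of a class share arrays and are not replicates.

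**Figure D4:**
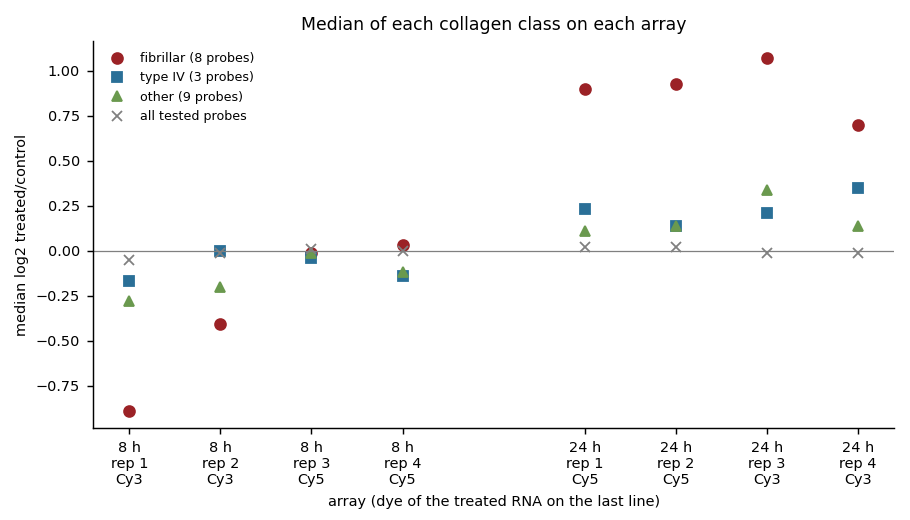
Median log2 ratio of treated over control (y axis) of the fibrillar, type IV and other collagen probes (the last with Col6a3 included) and of all 12053 tested probes on each array (x axis). The fibrillar medians lie between 0.70 and 1.07 on the 24 h arrays and between -0.89 and 0.03 on the 8 h arrays, while those of all tested probes stay within -0.05 to 0.02.

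The other 34 collagen probes did not pass the filter on dim spots, and 21 chains had no tested probe. Of these probes, 29 were not well above background in any of the 16 signals (control and treated on 8 arrays). They include the type XI chains Col11a1 and Col11a2, the hypertrophic cartilage chain Col10a1, and the type IV chains Col4a3 and Col4a4 known from kidney glomeruli. Col18a1, the precursor of endostatin, was well above background in 5 of 16 signals, the type IV chain Col4a5 and the anchoring fibril chain Col7a1 in 4 each, Col12a1 in 2, and Col5a1, a partner of Col5a2, in 1. No ratio is given for these chains.

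Beside the chains, 53 of 90 listed genes of collagen assembly, matrix partners, breakdown and regulation were tested, and 5 rose and none fell at 24 h, against 4.15% of all tested probes called higher. With processed signals 4 rose and 4 fell, and with array weights or 1 time per fit 10 rose and 3 fell. Creb3l1, a membrane-bound transcription factor that in mouse bone drives type I collagen transcription, stood at 1.04, 1.04, 1.26 and 0.91. The fitted difference was 1.06 (SD 0.14), or 2.09-fold (adjusted p = 0.000259). At 8 h it stood at -0.36, 0.10, 0.13 and -0.14, and the difference between the times passed the threshold (1.13, adjusted p = 0.00643). The prolyl 3-hydroxylase family member P3h4, named Leprel4 on the array, rose by 0.37 (adjusted p = 0.0408), a call kept in 11 of 19 alternative settings and lost when any 1 of the 24 h arrays was left out (adjusted p up to 0.175), or replicate 3 or 4 of 8 h (adjusted p = 0.0636 and 0.0653). They were 2 of 14 tested genes of hydroxylation, glycosylation and folding, whose median was 0.12.

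The collagen chaperone Serpinh1 stood at 0.38, 0.15, 0.30 and 0.24, all above 0, with a fitted 0.27 that missed the threshold (adjusted p = 0.0881). The prolyl 4-hydroxylase subunit P4ha1 was at 0.17 (adjusted p = 0.183). The cross-linking enzyme Lox was at 0.20 (adjusted p = 0.12). Loxl2, also at 0.20 (adjusted p = 0.127), entered the test only through the treated RNA at 24 h. There 3 treated spots and 0 control spots were well above background. None of the 6 tested genes of secretion and procollagen trimming passed, with the proteinase enhancer Pcolce highest at 0.52 (adjusted p = 0.108).

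Of 11 tested proteins that bind collagen fibrils, 3 rose at 24 h, against 4.15% of all tested probes called higher. Tnxb, tenascin-X, rose by 0.87 (adjusted p = 0.00499), Sparc, a collagen-binding matricellular protein, by 0.78 (adjusted p = 0.00939), and Postn, periostin, by 0.61 (adjusted p = 0.0138). Without replicate 1 of 24 h, Sparc (0.78, adjusted p = 0.0717) and Tnxb (0.84, adjusted p = 0.0515) missed the threshold. Sparc was also lost without replicate 2 (adjusted p = 0.0583) or 3 (adjusted p = 0.0537), and Postn without replicate 3 (adjusted p = 0.0803) or 4 (adjusted p = 0.0683). Sparc stood at 0.81, 1.00, 1.15 and 0.18 and Tnxb at 1.09, 1.43, 0.40 and 0.57. The small leucine-rich proteoglycans, which regulate fibril growth, were not called: Dcn was at 0.00 (adjusted p = 0.996), Bgn at -0.07 (adjusted p = 0.919) and Lum at -0.25 (adjusted p = 0.0757). The list's median was 0.00.

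No tested gene of breakdown (7 genes, median 0.21), of collagen receptors (4 genes, median -0.02), of basement membrane partners (4 genes, median 0.06) or of TGF-beta signalling and its targets (5 genes, median -0.21) passed at 24 h. In the limma fit none of the 53 genes passed at 8 h, and 2 did between the times, Creb3l1 and Postn (0.84, adjusted p = 0.0399). Postn's difference between the times passed in 7 of 18 alternative settings, with an adjusted p of up to 0.37. The count of 5 at 24 h fell to 2 without replicate 1 or without replicate 3 of 24 h and to 3 without replicate 2. Over all tested probes the calls were 209, 360 and 386 in the same order, against 833 in the main fit. Without replicate 1 of 8 h the count was 10 (9 higher, 1 lower), and without replicate 2 of 8 h it was 9 (7 higher, 2 lower). All tested probes then gave 1325 and 1179 calls.

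**Figure D5:**
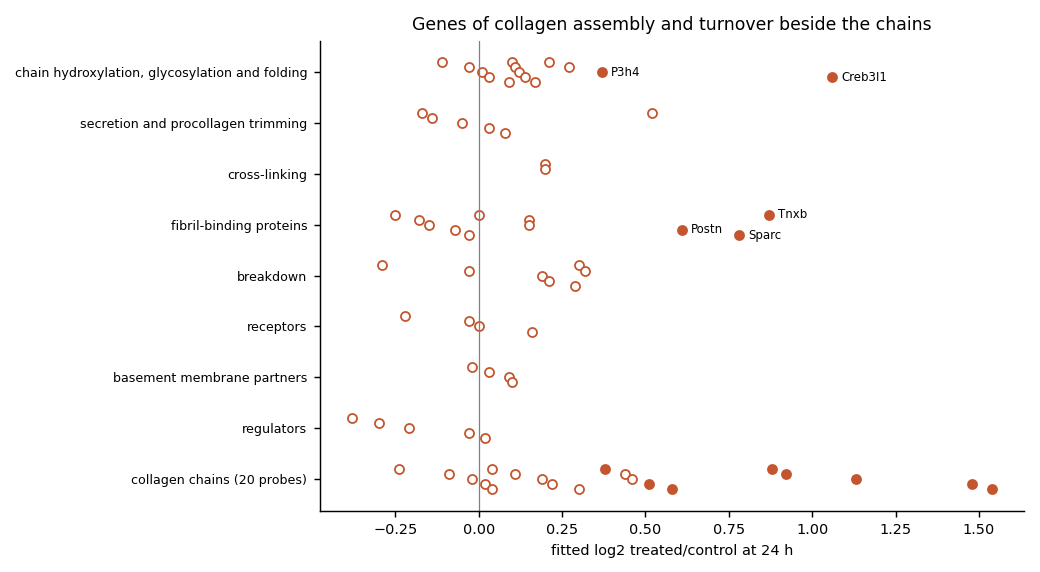
Fitted log2 ratio of treated over control at 24 h (x axis) for 53 tested genes of collagen assembly and turnover, by list (y axis), with the 20 tested collagen probes in the last row; filled circles passed the threshold and points are spread vertically for legibility. The 5 filled genes outside the collagens are P3h4, Creb3l1, Postn, Sparc and Tnxb, between 0.37 and 1.06.

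Markers of the cell types a muscle sample can hold were measured beside the collagens. Of 6 tested fibroblast and fibro-adipogenic markers, none passed at either time, with medians of -0.10 at 8 h and -0.02 at 24 h and a summed signal at 24 h of 1270 to 1530 in controls and 1290 to 1450 in treated RNA. Pdgfra, which defines fibro-adipogenic progenitors, stood at -0.03, and Dcn and Lum stand both in this list and among the fibril-binding proteins. None of 3 tested tendon and 6 smooth muscle or pericyte markers passed at 24 h, with medians of -0.09 and 0.01.

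Of 7 tested macrophage markers, 3 rose at 24 h, against 4.15% of all tested probes called higher at that time. These were the complement subunits C1qa (0.69, adjusted p = 0.00103) and C1qc (0.43, adjusted p = 0.00536) and the scavenger receptor Cd163 (0.50, adjusted p = 0.0141). Cd163 missed the threshold without replicate 1 of 24 h (0.48, adjusted p = 0.102), and also without replicate 3 (adjusted p = 0.0708) or 4 (adjusted p = 0.0709). The other 4 did not pass: the complement subunit C1qb stood at 0.37 (adjusted p = 0.227), the growth factor receptor Csf1r at 0.08 (adjusted p = 0.763), the chemokine receptor Cx3cr1 at 0.08 (adjusted p = 0.789) and Cd68, a lysosomal glycoprotein, at -0.02 (adjusted p = 0.958). Cd14 and Mrc1 were not well above background often enough to be tested. The 7 tested markers had a median of -0.33 at 8 h and 0.37 at 24 h, and their summed signal at 24 h was 2020 to 2650 in controls and 2360 to 3590 in treated RNA. On the 8 h arrays the median was -0.74, -0.21, -0.14 and -0.08. Between the times, C1qa, C1qc and Cd163 were called higher at 24 h and the other 4 did not pass, against 0.747% of all tested probes called higher. The 3 calls were kept in 13, 17 and 12 of 18 alternative settings and lost with median centring (adjusted p = 0.359, 0.309 and 0.309). The fat marker Fabp4 (0.43, adjusted p = 0.00373), 1 of 2 tested adipocyte markers, and the endothelial receptor Kdr (0.36, adjusted p = 0.0413), 1 of 4 tested endothelial markers, also rose at 24 h. The Kdr call was kept in 12 of 19 alternative settings and lost when any 1 of the 24 h arrays was left out (adjusted p up to 0.17), or replicate 3 of 8 h (adjusted p = 0.0726). Fabp4 was also called higher at 24 h than at 8 h, a call kept in 14 of 18 alternative settings and lost with median centring (adjusted p = 0.34). Lep, Plin1 and Cidec, further adipocyte markers, did not pass the filter. The summed signal of the 2 tested adipocyte markers was 176 to 260 in controls and 236 to 341 in treated RNA, and that of the endothelial markers 854 to 1120 and 899 to 1120.

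Among the 6 muscle fibre markers with no saturated spot, Acta1, the skeletal actin, fell by 0.44 (adjusted p = 0.0221) at 24 h, while with median centring it stood at -0.03 and was not called. The Acta1 call was kept in 12 of 19 alternative settings and lost when any 1 of the 24 h arrays was left out. The summed signal of the 6 at 24 h was 45100 to 51200 in controls and 32400 to 48000 in treated RNA. No single ratio is given for Tnni2 and Actn3, which were saturated on every 24 h array. Over all 8 fibre markers, these 2 included, the median ratio was -0.06 at 8 h and -0.38 at 24 h. On the arrays it was -0.20, 0.62, -0.39 and -0.30 at 8 h and -0.16, -0.36, -0.59 and -0.29 at 24 h. It was not computed with median centring. The 2 tested haemoglobin genes varied between arrays, with a median of -1.63, 0.42, -2.21 and -0.21 at 8 h and 0.21, 0.09, 1.84 and 0.06 at 24 h. None of 4 tested nerve markers passed. The part of these cell types in the collagen values was not tested.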

How the data were processed

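Per the labels' protocols, Trizol was used for extraction and a Quick Amp kit for labelling. The submitters' processing notes name Agilent Feature Extraction 9.5.3.1. The deposited mean and background signals are linear intensities without normalization, per the file headers, and the processed signals are background-corrected intensities with a lowess dye normalization. LogRatio, as deposited, is a log10 ratio of red over green, per the file headers. The authors' value table holds log2 ratios; over all 42877 gene spots they equal treated over control of the processed signals within 1.4e-05, with column medians from -0.144 to 0.0896 and no centring added.

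Here, mean signals were corrected by normexp (offset 50) with the local background and normalized by loess within arrays (limma 3.58.1, R 4.3.3). The offset draws ratios of dim probes towards 0. Between 731 and 927 spots flagged as outliers per array were left out. Probes well above background on at least 3 of 4 arrays in at least 1 of 4 RNA groups were tested (12053). A model with both times and a dye term was fitted to all 8 arrays by lmFit and eBayes, two-sided, with Benjamini-Hochberg adjustment over all tested probes and a threshold of 0.05. Signals are the 2 channels after loess and between-array scaling (Aquantile) and stay open to dye bias. SDs are over the 4 arrays of a time. The number of arrays limits the precision. The fit was tested on simulated data.

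Every chain with a tested probe is named. All arrays are given for chains past the threshold and for the brightest probe of each class, and further chains were given in full after their values were seen. Of other pathway genes and cell markers, those past the threshold are named, and a few more were chosen after their values were seen. The members and lists were chosen with earlier results of these data known. Positions on rn4 are those of the array files, and gene starts are from RefSeq (GRCr8, 30 of 37 chains matched); exons and untranslated regions are not used here. Alternatives were median centring, processed signals, the authors' table, 2 other filters, no dye term, array weights, 1 probe per gene, a replicate block, outlier spots kept, 1 time per fit and each array left out.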

Additional observations from a re-analysis of the deposited data

Results flagged for a closer look

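Among the 40 groups of 4 arrays formed by 20 tested collagen probes at each time, 2 held an array far from the other 3 by Dixon's test, and chance flags about 1 group in 20. For Col15a1 at 24 h the gap of replicate 3 (1.14) to the nearest array was 0.837 of the range. For Col19a1, a fibril-associated chain, at 24 h replicate 4 (-0.04) lay apart by 0.881 of a narrow range, with an SD of 0.05.

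The effect differed between the 2 times, by the test of the difference itself, for Col1a1 A_44_P350521 (1.42), Col1a1 A_64_P040278 (2.10), Col1a2 A_43_P12783 (1.78), Col3a1 A_44_P146518 (2.08) and Col5a2 A_64_P092419 (1.01). Each value is the log2 ratio at 24 h minus that at 8 h. Time and slide cannot be told apart in these differences.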

How the results depend on the processing

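The 5 calls of Col1a1 (both probes), Col1a2, Col3a1 and Col5a2 A_64_P092419 at 24 h were kept in every alternative that gave a value. Col5a2 A_64_P092414 passed in 15 of 17, Col6a3 in 14 of 18 and Col4a1 A_64_P149501 in 11 of 19. The 8 collagen calls at 24 h became 6 with processed signals, the authors' table, the strict filter and 1 probe per gene, 7 with no filter and 10 with array weights. Leaving out 1 array gave 5 to 9 at 24 h, 0 to 2 at 8 h and 4 to 6 between the times. The causes were not tested.

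Median centring gave 0 calls at 8 h and between the times (collagen and all probes), 436 calls among all probes at 24 h against 833, and medians of 1.22 for fibrillar and 0.26 for other chains at 24 h; it put the median of all probes at 0.12 at 8 h and 0.15 at 24 h. At 8 h it turned the other chains' median to 0.05, Col4a1 A_64_P293606 to -0.01, Col5a2 A_64_P092419 to 0.13, Col14a1 A_64_P093189 to 0.00, Col15a1 to 0.21, Col16a1 to 0.01, Col19a1 to 0.09, Col6a1 to 0.06 and Col6a2 and Col9a1 to 0.05.

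Processed signals and the authors' table gave the same values: type IV medians of -0.34 at 8 h and 0.74 at 24 h, medians of 1.08 (fibrillar) and 0.17 (other) at 24 h, and 89 calls between the times among all probes against 157. They turned Col4a1 A_64_P293606 to -0.51, Col2a1 to -0.22 and Col5a2 A_64_P092414 to 0.06 at 8 h. At 24 h they turned Col2a1 to 0.08 and Col14a1 A_64_P093194 to -0.20, and between the times Col2a1 to 0.29 and Col14a1 A_64_P093189 to 0.11. The strict filter left 1 type IV probe (-0.28 and 0.58), and 1 probe per gene gave type IV medians of -0.18 and 0.40.

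Without the dye term, all probes gave 1 call at 8 h and 104 between the times. Array weights gave 1638 at 24 h and 308 between the times, and turned Col5a2 A_64_P092414 to 0.03, Col15a1 to 0.12 and Col16a1 to 0.08 at 8 h and Col9a1 to 0.01 between the times. One time per fit gave 0 at 8 h and 1703 at 24 h. Leaving out 1 array gave 0 to 1296 calls at 8 h, 209 to 1325 at 24 h and 33 to 638 between the times among all probes, and 0.04 to 0.18 for the other chains' median at 24 h. These left-out fits put uncalled probes on both sides of 0. At 8 h the ranges were -0.02 to 0.07 for Col4a1 A_64_P293606, -0.01 to 0.05 for Col2a1, -0.07 to 0.07 for Col5a2 A_64_P092414, -0.25 to 0.00 for Col5a2 A_64_P092419, -0.23 to 0.13 for Col15a1, -0.09 to 0.08 for Col16a1 and -0.20 to 0.04 for Col9a1. At 24 h they were -0.05 to 0.03 for Col2a1, -0.05 to 0.07 for Col14a1 A_64_P093194 and -0.13 to 0.18 for Col6a1. Between the times they were -0.08 to 0.01 for Col2a1, -0.18 to 0.09 for Col14a1 A_64_P093189 and -0.13 to 0.11 for Col9a1.

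Counts of other pathway genes, recomputed after seeing the data, were 8 at 24 h (4 higher, 4 lower) and 1 between the times with processed signals or the authors' table, 13 (10 higher, 3 lower) and 4 with array weights, and 13 at 24 h (10 higher, 3 lower) with 1 time per fit. Between the times they were 0 with median centring and 1 without the dye term. Leaving out 1 array gave 0 to 2 at 8 h, 2 to 10 at 24 h and 1 to 4 between the times.

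The deviations of same-numbered arrays of the 2 times correlated at -0.257, 0.174, -0.166 and -0.0697, and those of unlike-numbered arrays at -0.296 to 0.339. These values cannot tell whether same-numbered arrays share animals or control RNA. A replicate block gave 0 collagen calls at 8 h, 9 at 24 h and 7 between the times, with 8 calls among all probes at 8 h, 341 between the times, and 4 other pathway genes between the times.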
